A study of Mus musculus with 25 samples.

Results

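The 9 genes described here, which mark the spiny projection neurons of the striatum, were followed through the ageing mouse brain. They are the dopamine receptors Drd1 and Drd2, the adenosine receptor Adora2a, the peptide precursors Tac1, Pdyn and Penk, and the signalling genes Ppp1r1b, Rgs9 and Pde10a. They were taken by their Ensembl identifiers from a count table of 47729 genes. All 9 members passed the filter on low counts, which kept 17799 genes for testing. The series holds RNA sequencing libraries of brain hemispheres from 25 male C57BL/6 mice, an inbred strain. There were 5 animals at each of 2, 9, 15, 24 and 30 months of age, with no treatment or genetic change named for any group. A hemisphere contains cortex, striatum, hippocampus, thalamus and other regions, and the labels do not give the exact borders of the dissection. In such bulk RNA, fewer striatal cells in a sample and less RNA per cell cannot be told apart. The labels do not state more about how the 5 samples of an age were obtained, so the p-values measure only the spread between these samples.

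Spiny projection neurons make up most of the neurons of the striatum and use GABA as their transmitter. Those of the direct pathway carry the D1 dopamine receptor and the precursors of substance P and dynorphin, and project to the output nuclei of the basal ganglia. Those of the indirect pathway carry the D2 dopamine receptor, the adenosine receptor Adora2a and the enkephalin precursor, and project to the external globus pallidus. Dopamine raises cyclic AMP through D1 and lowers it through D2, while adenosine raises it through the Adora2a receptor. Ppp1r1b encodes DARPP-32, which turns this signal into inhibition of protein phosphatase 1. Pde10a encodes a phosphodiesterase that breaks down cyclic nucleotides, and Rgs9 encodes a regulator that shortens G protein signals. None of the 9 genes is used by the striatum alone: the peptide precursors, for example, are also made by neurons of other forebrain regions.

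For the peptide genes Penk and Tac1, whose ratio differed with age, the coding stretches of their best known peptides are shown, 5′ to 3′ on the coding strand, with the codons of the peptide in capitals and the flanking codons in lower case. Both were read from the coding sequences of the GENCODE M21 annotation of GRCm38.
Penk methionine enkephalin, chr4:4134319-4134363, minus strand: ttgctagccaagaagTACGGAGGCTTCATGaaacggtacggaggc
Tac1 substance P, chr6:7556717-7556779, plus strand: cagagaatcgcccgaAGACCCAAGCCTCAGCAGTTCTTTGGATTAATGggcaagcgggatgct
The Penk coding sequence holds 7 opioid cores, 6 of methionine enkephalin and 1 of leucine enkephalin, in a precursor of 268 residues. That of Pdyn holds 3 cores of leucine enkephalin in 248 residues. Tac1 encodes substance P once in a precursor of 130 residues and holds no opioid core.

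Library totals lay between 17800113 and 31261121 counts, and each member had at least 471 counts in every library. Replicates 2 to 5 of 30 months carry a distortion by base composition: the 10% of protein-coding genes with the highest GC content read above the 10% with the lowest by a log2 gap of 1.03 to 1.84. For replicate 1 of 30 months this gap came to 0.13, and the younger 20 libraries ranged from -0.24 to 0.15. Comparisons among the 4 younger ages were therefore fitted on those 20 libraries alone, and values of 30 months are given with and without a correction for GC content. All levels below are CPM, library-scaled counts with TMM factors applied, and each fold change is log2 of the older relative to the younger age with its standard error. Adjusted p values of single genes come from edgeR's quasi-likelihood test with Benjamini-Hochberg adjustment over the 17799 genes.

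Per kilobase of exon, Penk was the most abundant member in the 20 younger libraries, at 129 ± 12.3 CPM per kilobase (SD, n = 20). Ppp1r1b followed at 69.6 ± 4.70 and Pde10a at 26.5 ± 2.62 CPM per kilobase, and the libraries of these 3 genes overlapped neither with each other nor with the next gene. The other 6 members lay close together, Pdyn at 15.0 ± 1.87, Tac1 at 13.6 ± 1.29, Drd1 at 13.5 ± 1.06, Rgs9 at 13.1 ± 0.749, Adora2a at 12.6 ± 1.24 and Drd2 at 10.95 ± 1.25 CPM per kilobase. Each of these 6 overlapped with its neighbour in the order, so their ranks are not resolved. Among protein-coding genes, Penk stood at or above 98.8% and Drd2, the lowest member, at or above 72.0%. Exons of Ppp1r1b share 460 bases with the antisense gene 1700003D09Rik, and those of Penk share 233 bases with the antisense gene A830012C17Rik. Whether the counting used strand is not given in the sources used here, so reads from these partners cannot be told apart.

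Few of the 9 members passed the test in any comparison of the younger ages, and 1 gene, Pdyn, rose between 2 and 24 months while 2 receptor genes fell. From 2 to 9 months 1 member rose and none fell (Pde10a), where 14.5% of all genes tested were called in either direction. From 9 to 15 months 1 fell (Drd2), against 10.7% of all genes. From 15 to 24 months 2 rose (Pdyn and Ppp1r1b) and 1 fell (Pde10a), against 23.6%. From 2 to 24 months 1 rose (Pdyn) and 2 fell (Drd1 and Adora2a), against 22.3%. A linear trend over 2 to 24 months was called for 4 members, upward for Pdyn and downward for Drd1, Drd2 and Adora2a, against 16.6% of all genes. For each pair of ages, the 1 to 3 members called are close to what these shares of all genes would give for 9 genes. The 4 called for the trend lie above, but they include Drd2, close to the threshold (edgeR adjusted p = 0.0447). With all 25 libraries in 1 fit, the trend was called for 0 members. The members also varied together between libraries, so their calls are not independent. No test of the members as a list was made. Some of these counts rest on single libraries. Without replicate 1 of 2 months 4 members rose from 2 to 9 months and 2 fell from 9 to 15 months, and without replicate 1 of 9 months none was called from 2 to 9 months by edgeR. From 9 to 15 months 2 also fell without replicate 4 of 9 months or replicate 2 of 15 months. Without replicate 2 of 24 months 1 rose and 4 fell from 2 to 24 months, Drd2 and Rgs9 being the added falls, and without replicate 1 of 24 months the trend was called for 2 members. The median log2 fold change of the members from 2 to 24 months was -0.09, and that of all genes 0.00. At none of the 9 members were the 5 libraries of 24 months fully separate from the 5 of 2 months, which held for 14.4% of all genes. For other pairs of ages that share was not computed, so the separations of single members given below have none beside them.

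**Figure D1:**
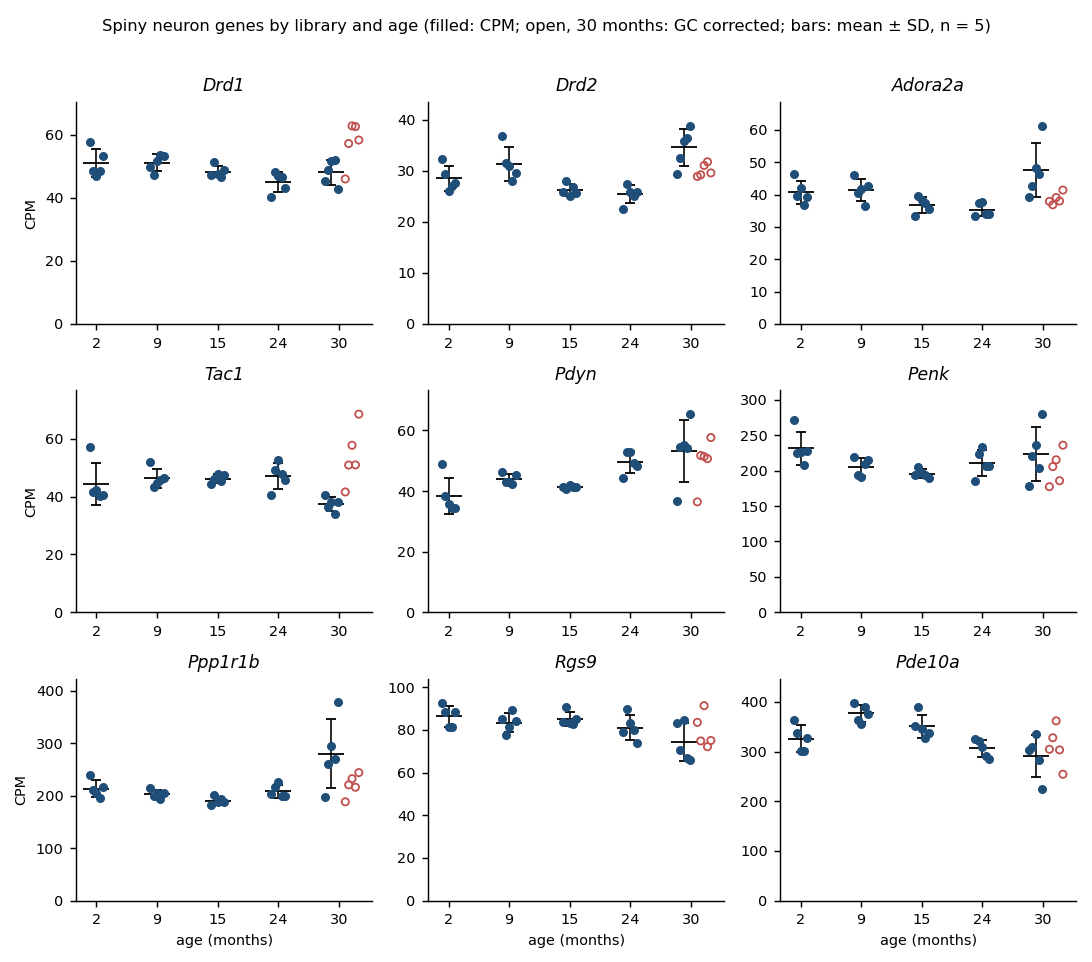
CPM (vertical axis, from 0) of each member in every library against age in months (horizontal axis); filled points are single libraries, bars the mean ± SD of 5 libraries, and open points the libraries of 30 months after GC correction. Pdyn is highest at 24 months among the younger ages, replicate 1 of 2 months (leftmost point) is the highest library of its age in every panel, and the spread of Ppp1r1b at 30 months, 197 to 378 CPM, narrows to 188 to 244 after correction.

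Drd1 and Adora2a fell modestly with age, and both dopamine receptor genes and Adora2a had a downward trend. Drd1, the D1 receptor of the direct pathway, stood at 57.6, 48.5, 47.0, 48.5 and 53.4 CPM in the 5 libraries of 2 months and at 40.4, 48.1, 47.0, 46.7 and 43.1 CPM at 24 months. Of the 24 month libraries, 3 lay below the range of 2 months, 1 at its lower edge and 1 within it. Their means were 51.0 ± 4.39 and 45.1 ± 3.21 CPM (SD, n = 5). The log2 fold change was -0.18 with a standard error of 0.05, so that Drd1 fell by 11.7% (edgeR adjusted p = 0.0137). At 9 months Drd1 was at 51.1 ± 2.70 CPM, the level of 2 months within its spread, and at 15 months at 48.3 ± 1.79 CPM (SD, n = 5). Over the 4 younger ages it fell by 0.603% per month (edgeR adjusted p = 0.013), a trend that was no longer called without replicate 1 of 24 months (adjusted p = 0.0528).

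Adora2a, the adenosine receptor that opposes D2 in the indirect pathway, stood at 46.2, 39.5, 42.0, 36.8 and 39.3 CPM at 2 months and at 33.5, 37.4, 37.6, 34.1 and 34.1 CPM at 24 months. Of the 24 month libraries, 3 lay below all libraries of 2 months and 2 lay within their range. The log2 fold change was -0.21 with a standard error of 0.06, so that Adora2a fell by 13.5% (edgeR adjusted p = 0.0125), and -0.25 after GC correction. Before correction it was at 36.8 ± 2.43 CPM at 15 months against 41.5 ± 3.48 CPM at 9 months (SD, n = 5), a step that missed the threshold (edgeR adjusted p = 0.0627). After GC correction Adora2a was at 38.6 ± 2.14 CPM at 15 and 34.2 ± 1.56 CPM at 24 months (SD, n = 5), and the fall between these ages was then called (log2 fold change -0.18, edgeR adjusted p = 0.0311).

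Drd2, the D2 receptor, was highest at 9 months among the 4 younger ages. It stood at 36.9, 31.5, 30.9, 28.0 and 29.5 CPM in the libraries of 9 months and at 25.8, 28.1, 25.1, 26.8 and 25.6 CPM in those of 15 months. Only 1 library of 15 months reached the lowest of 9 months. This fall had a log2 fold change of -0.26 with a standard error of 0.06 (edgeR adjusted p = 0.0109). With the level of 11 other spiny neuron genes in the fit, it was -0.10 and no longer called (adjusted p = 0.375). The levels at 2 and 24 months were 28.5 ± 2.41 and 25.4 ± 1.81 CPM (SD, n = 5), a log2 fold change of -0.16 that missed the threshold (edgeR adjusted p = 0.0734) and passed it after GC correction (-0.19, adjusted p = 0.0368). Over the 4 younger ages Drd2 fell by 0.723% per month, close to the threshold (edgeR adjusted p = 0.0447).

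Among the peptide genes, Pdyn rose with age, whereas Tac1 and Penk did not pass the test in any comparison of the younger ages. Pdyn, the precursor of the dynorphins, which act on the kappa opioid receptor, stood at 48.8, 38.3, 35.6, 34.5 and 34.3 CPM at 2 months. It was at 46.3, 43.1, 43.1, 42.3 and 45.4 CPM at 9 months and at 41.5, 40.6, 41.9, 41.5 and 41.5 CPM at 15 months. At 24 months it reached 44.3, 52.8, 53.0, 49.3 and 48.3 CPM. All 5 libraries of 15 months lay below all 5 of 9 months, a difference that missed the threshold (log2 fold change -0.09, edgeR adjusted p = 0.463). All 5 libraries of 24 months lay above all 5 of 15 months, and they overlapped with 2 months only through replicate 1 of 2 months. From 2 to 24 months the log2 fold change was 0.37 with a standard error of 0.07, a rise of 29.3% (edgeR adjusted p = 0.000814). From 15 to 24 months it was 0.26 with a standard error of 0.07 (edgeR adjusted p = 0.0111). Over the 29 alternatives run for 24 with 2 months, the log2 fold change of Pdyn ranged from 0.34 to 0.61 and it stayed past the threshold in each. Without replicate 1 of 2 months the rise from 2 to 9 months was also called (log2 fold change 0.30, adjusted p = 6.5e-05), where the fit with that library gave 0.20 (edgeR adjusted p = 0.0674).

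Neurons outside the striatum also make dynorphin, and a list of hypothalamic genes is therefore given for the same ages. Of 10 genes of hypothalamic neurons, 2 were higher at 24 than at 2 months and none lower, a share below the 22.3% of all genes called. These were Agrp at a log2 fold change of 0.63 (edgeR adjusted p = 0.0364) and Avp at 0.65 (adjusted p = 0.0367). The median log2 fold change of the 10 genes was 0.49 from 2 to 24 months, where that of all genes was 0.00. Their summed level was 22.7 to 37.7 CPM at 2 months and 35.4 to 42.9 CPM at 24 months. No gene of the list was at 0 in any library of these ages. The part of hypothalamic tissue in the rise of Pdyn was not tested.

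Tac1, the precursor of substance P and neurokinin A, stood at 57.1, 41.7, 42.3, 40.1 and 40.6 CPM at 2 months and at 40.4, 49.2, 52.9, 47.8 and 45.9 CPM at 24 months. The ages overlapped through replicate 1 of 2 months, the highest of all, and replicate 1 of 24 months, the lowest of its age. The log2 fold change was 0.09 with a standard error of 0.09 (edgeR adjusted p = 0.495). Without replicate 1 of 2 months it was 0.20 (edgeR adjusted p = 0.0134), so that this 1 library decides whether Tac1 was called.

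Penk, the precursor of the enkephalins, stood at 271, 224, 226, 208 and 227 CPM at 2 months and at 218.8, 193, 191, 209 and 215 CPM at 9 months. The mean was 196 ± 6.03 CPM at 15 months and 211 ± 18.1 CPM at 24 months (SD, n = 5). Every library of 15 months lay below every library of 2 months, a pair of ages that was not tested. No pair of consecutive ages differed beyond the threshold. The log2 fold change from 2 to 24 months was -0.13 with a standard error of 0.07 (edgeR adjusted p = 0.16).

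Of the 3 signalling genes, Pde10a changed in opposite directions before and after mid-life. It stood at 364, 337, 302, 301 and 328 CPM at 2 months and at 399, 363, 356, 389.6 and 376 CPM at 9 months, where 1 library of 2 months reached the lower end of the 9 month range. The rise had a log2 fold change of 0.21 with a standard error of 0.06 (edgeR adjusted p = 0.0183), and it was no longer called without replicate 1 of 9 months (adjusted p = 0.0542). At 24 months Pde10a was at 325.3, 321.7, 309, 291 and 285 CPM, below all 5 libraries of 15 months, which held 328 to 390.0 CPM. That fall had a log2 fold change of -0.20 with a standard error of 0.06 (edgeR adjusted p = 0.0171), and after GC correction it was -0.17 and just missed the threshold (adjusted p = 0.0534). Between 2 and 24 months Pde10a differed by a log2 fold change of -0.09, less than the threshold required (edgeR adjusted p = 0.269).

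Ppp1r1b, with the smallest within-age spread of the members, stood at means of 213 ± 16.1, 204 ± 8.07, 190.1 ± 6.89 and 209 ± 12.3 CPM at 2, 9, 15 and 24 months (SD, n = 5). The rise from 15 to 24 months was called (log2 fold change 0.13 with a standard error of 0.04, edgeR adjusted p = 0.0331). With its GC content of 61.0%, Ppp1r1b had the largest GC shift of the members in the younger libraries, up to log2 0.15. The GC gap was negative in all 5 libraries of 15 months (-0.24 to -0.08) and positive in all 5 of 24 months (0.06 to 0.15), and after GC correction the log2 fold change of Ppp1r1b was 0.00 (adjusted p = 0.976). Rgs9 did not pass the test in any comparison of the younger ages. Its means ran from 86.4 ± 4.95 CPM at 2 months to 81.1 ± 5.92 CPM at 24 months (SD, n = 5), a log2 fold change of -0.09 with a standard error of 0.05 (edgeR adjusted p = 0.156).

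Some other genes of the same neurons also fell from 2 to 24 months. Of 12 further genes enriched in spiny neurons, 11 were in the table and tested. From 2 to 24 months 5 of these 11 fell, 6 did not pass and none rose, beside 22.3% of all genes called in either direction, with a median log2 fold change of -0.14. Actn2, an actin binding protein, fell by 0.33 on the log2 scale (adjusted p = 7.8e-05) and Strip2 by 0.17 (adjusted p = 0.00139). The summed level of the 11 genes was 1715 to 1964 CPM at 2 months and 1626 to 1782 CPM at 24 months.

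When the mean log2 level of these 11 genes in each library entered the fit as a covariate, the falls of Drd1 and Adora2a were no longer present. The log2 fold change from 2 to 24 months was then -0.03 for Drd1 (edgeR adjusted p = 0.773) and -0.02 for Adora2a (adjusted p = 0.822). That of Pdyn was 0.61 (edgeR adjusted p = 3.2e-08) and that of Tac1 0.39 (adjusted p = 7.7e-06), and Ppp1r1b was also called, at 0.12 (adjusted p = 0.0191). Thus 3 members were higher and none lower with this covariate in the fit. The same fit called 2867 of the 17799 genes tested, 45.0% of these calls being higher. The covariate was itself lower at 24 months, and the fit estimates a slope on it for each gene. Its values are therefore neither a plain difference from those 11 genes nor a change per striatal cell. In a fit of all 25 libraries, in which the spread within 30 months enters the estimate, the log2 fold changes from 2 to 24 months hardly moved, -0.18 for Drd1 and -0.21 for Adora2a, but neither was called (edgeR adjusted p = 0.102 and 0.192), and Pdyn was the 1 member called.

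**Figure D2:**
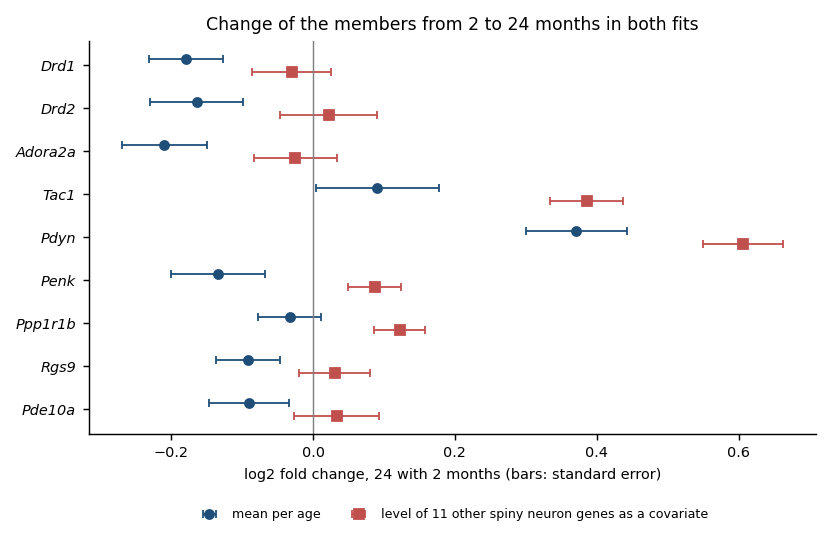
Log2 fold change from 2 to 24 months (horizontal axis) of each member, in the fit with a mean per age (circles) and in the fit that also holds the level of 11 other spiny neuron genes (squares); bars are standard errors. Drd1 moves from -0.18 to -0.03 and Adora2a from -0.21 to -0.02, while Pdyn moves from 0.37 to 0.61 and Tac1 from 0.09 to 0.39.

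Related pathways gave small and mixed differences between 2 and 24 months, a comparison that shares its 2 month libraries with the others. Of 17 further genes of cyclic AMP, G protein and phosphatase signalling, 5 fell and none rose. They include Prkar2b, a regulatory subunit of protein kinase A (log2 fold change -0.21, edgeR adjusted p = 9.8e-05), Arpp19, a phosphatase inhibitor (-0.24, adjusted p = 0.000861), and Cdk5r1, the activator of Cdk5 (-0.13, adjusted p = 0.000961). Of 12 other receptors for dopamine, acetylcholine, opioids, tachykinins and cannabinoids, 1 rose, the D5 dopamine receptor gene Drd5 (0.36, adjusted p = 0.0331), and 2 fell, the muscarinic receptor genes Chrm1 (-0.22, adjusted p = 0.00069) and Chrm4 (-0.25, adjusted p = 0.045). Of 14 transcription factors of the striatal lineage 2 fell and none rose, Foxp2 by 0.21 (adjusted p = 0.000766) and Foxp1 by 0.11 on the log2 scale (adjusted p = 0.0464). Of 10 genes that process peptide precursors or build secretory granules, 4 rose and none fell, among them the prohormone convertase inhibitor Pcsk1n (0.29, adjusted p = 0.00238), the convertase chaperone Scg5 (0.13, adjusted p = 0.00109) and the granule protein Chgb (0.13, adjusted p = 0.001). For each list these counts stand against the 22.3% of all genes called.

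Some markers of other cells also differed between 2 and 24 months. Of 10 genes of other cells, 3 rose, 7 did not pass and none fell, where 22.3% of all genes were called: the astrocyte gene Gfap (log2 fold change 0.82, edgeR adjusted p = 1.3e-06), the myelin gene Mbp (0.25, adjusted p = 0.00012) and the microglial gene Cx3cr1 (0.20, adjusted p = 0.0128). Their summed level was 4434 to 5727 CPM at 2 months and 5659 to 6191 CPM at 24 months, and 1 gene of the list was at 0 in at least 1 library of 2 months. Of 8 genes of all neurons 1 rose and 2 fell, with a summed level of 8267 to 8820 CPM at 2 months and 8036 to 8620 CPM at 24 months. Of 10 genes of cortical neurons 2 fell and none rose, of 10 hippocampal genes 1 fell, of 10 thalamic genes 2 rose, of 10 cerebellar genes 1 rose and 1 fell, and of 7 genes of the olfactory bulb none passed edgeR's test. Of 6 genes of midbrain dopamine neurons 1 fell, Aldh1a1 (log2 fold change -0.35, adjusted p = 0.00194), and of 6 genes of cholinergic neurons none passed edgeR's test in any comparison of the younger ages. The part of these cells in the results of the members was not tested.

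Within an age, the 9 members tended to be high or low in the same libraries. Each library's log2 CPM was taken as a deviation from the mean of its age, over the 20 younger libraries. All 36 pairs of members had a positive Pearson r, with a median of 0.66 and a range of 0.36 to 0.93. Of these, 25 passed a two-sided permutation test with 100000 resamples within ages, adjusted over the 36 pairs, and 22 passed by Spearman's rho. The closest pair was Tac1 and Pdyn, the peptide genes of the direct pathway (r = 0.93, adjusted permutation p = 0.00144; rho = 0.84, adjusted p = 0.00324). Tac1 and Penk, which belong to opposite pathways, followed (r = 0.90, adjusted permutation p = 0.00144; rho = 0.79, adjusted p = 0.00598), and Ppp1r1b and Adora2a had r = 0.85 (adjusted permutation p = 0.00072; rho = 0.83, adjusted p = 0.00324). Rgs9 and Pde10a formed a further close pair (r = 0.79, adjusted permutation p = 0.00198; rho = 0.79, adjusted p = 0.00459).

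The 2 dopamine receptor genes were among the least related members. Drd1 and Drd2 had r = 0.37 (adjusted permutation p = 0.156; rho = 0.29, adjusted p = 0.27), and Adora2a and Rgs9 had the lowest r, 0.36 (adjusted permutation p = 0.155; rho = 0.37, adjusted p = 0.171). Without the 2 libraries farthest from the median of the first gene, all 36 pairs stayed positive, from 0.04 for Drd1 and Drd2 to 0.82 for Tac1 and Pdyn, with a median of 0.51. Without replicate 1 of 2 months 13 pairs were called in place of 25, and all 36 stayed positive.

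Replicate 1 of 2 months was above the mean of its age at all 9 members, by log2 0.10 at Rgs9 to 0.38 at Tac1, with a mean of 0.22. All 11 other spiny neuron genes (mean 0.14) and all 6 cholinergic genes (mean 0.12) were also above their age mean in it. The 8 genes of all neurons were not (mean -0.04, 4 of 8 above), and those of midbrain dopamine neurons were all below (mean -0.31, 0 of 6 above), as were 9 of 10 cerebellar and 9 of 10 hypothalamic genes. Replicate 1 of 24 months was the counterpart, below its age mean at 8 of 9 members (mean -0.10), with Pde10a as the exception at 0.09. In it 10 of 11 other spiny neuron genes and all 6 cholinergic genes (mean -0.37) were low, while the genes of all neurons were not (mean 0.00). Replicates 2 and 3 of 24 months were above their age mean at all 9 members (means 0.09 and 0.09), and replicate 4 of 2 months was below at all 9 (mean -0.11). The cholinergic genes did not follow the members in every library. All 6 were above their age mean in replicate 2 of 24 months (mean 0.17), but 1 of 6 in replicate 3 (mean -0.05). In replicate 4 of 15 months all 6 were above (mean 0.16), where the mean of the members was -0.02. How much striatum each hemisphere sample held is not in the labels, and its part in this shared variation was not tested. Relative to the mean of the genes of all neurons in the same library, a divisor that the members then share, 35 of the 36 pairs were called.

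**Figure D3:**
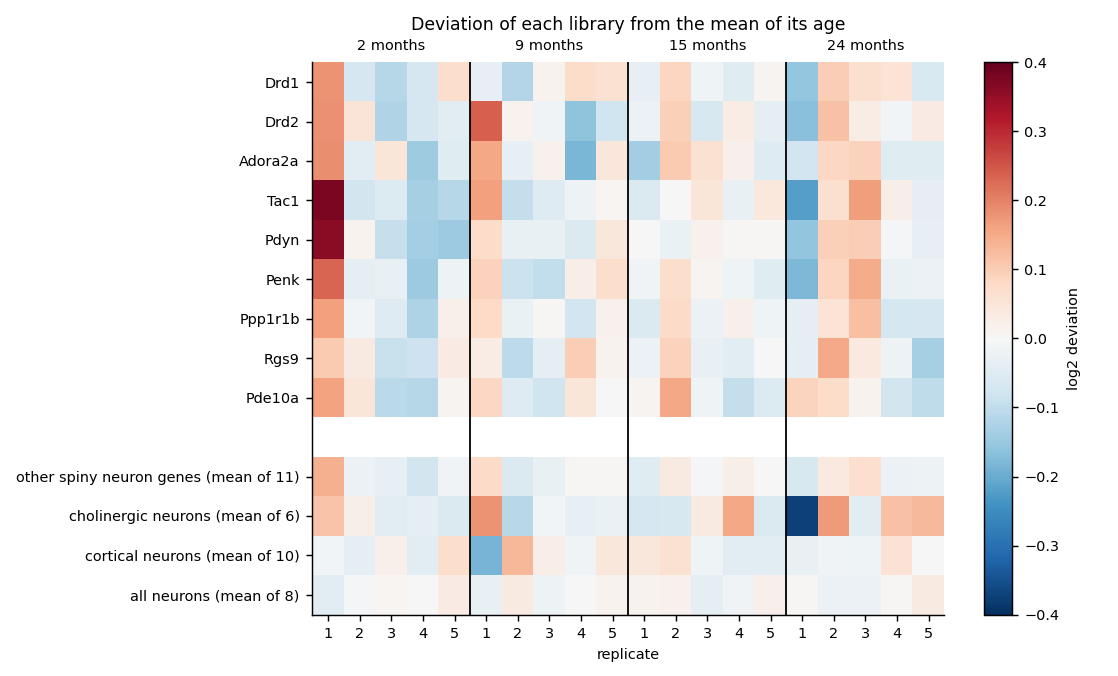
Log2 deviation of each of the 20 younger libraries (columns, by age and replicate) from the mean of its age, for the 9 members (upper rows) and for the mean of 4 lists (lower rows); red is above and blue below. The column of replicate 1 of 2 months is red at all 9 members and at the other spiny neuron and cholinergic genes, and that of replicate 1 of 24 months is blue at 8 of 9 members.

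The members varied more between animals of 1 age than most genes of like abundance. The within-age SD ran from log2 0.08 for Ppp1r1b to 0.14 for Tac1, where the median of genes of like level was 0.05 for Ppp1r1b and 0.06 for Tac1. Each member stood at or above 87.5% of such genes, Penk at or above 97.8% and Tac1 at or above 97.4%.

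The genes most like the members across libraries included several of spiny neurons. Over 12732 genes ranked by the correlation of their within-age deviations with the mean standardised deviation of the 9 members (20 libraries, a description with no test), Adcy5, the main adenylyl cyclase of spiny neurons, was among the leading genes (r = 0.90). It was followed by Gpr83 (0.81), Fam162a (0.80), Gng7 (0.80), the G protein subunit that D1 and adenosine signals use in the striatum, Tfdp1 (0.80), Dars (0.79), Tardbp (0.79) and Pde1b (0.79), a calcium-dependent phosphodiesterase of spiny neurons. Lrrc10b (0.79), Syt6 (0.78), Arglu1 (0.78), Anapc5 (0.77), Prkch (0.77) and Podxl (0.76) came after these. Of the 11 other spiny neuron genes measured, 7 were among the first 100, and their median r was 0.70, where the median of all ranked genes was 0.00 and their 99th percentile 0.62. For each member singly, the closest gene was also sought with the other members left out. Tac1 (r = 0.93) and Pdyn (r = 0.92) were then closest to Adcy5. The genes then closest to Drd1 (Letmd1, 0.84), Drd2 (mt-Nd4, 0.81), Ppp1r1b (Fam162a, 0.88), Adora2a (Gstk1, 0.84), Rgs9 (Ftx, 0.82) and Pde10a (Ilkap, 0.86) were on none of the lists. With members kept in, another member came first for Tac1, Pdyn and Adora2a. Of the 8 other members, 2 were among the first 100 genes for Pde10a, against 6 for Tac1 and for Penk.

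Ratios of members within 1 library do not depend on the library's scaling, and 2 of the 4 examined differed between 2 months and later ages up to 24 months. For 16 comparisons, 4 ratios at 4 older ages each set against the same 5 libraries of 2 months, a two-sided exact permutation test was run, for which 5 against 5 allows a p of 0.00794 at the least. Of the 16, 7 passed after adjustment, and 4 without replicate 5 of 2 months. The ratio of Tac1 to Penk, direct to indirect pathway peptide, was 0.211, 0.186, 0.187, 0.192 and 0.179 at 2 months. It was 0.237, 0.224, 0.234, 0.219 and 0.216 at 9 months, 0.225 to 0.252 at 15 months, and 0.218, 0.221, 0.227, 0.232 and 0.222 at 24 months. All 15 libraries of 9 to 24 months lay above all 5 of 2 months.

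The mean log2 ratio of Tac1 to Penk exceeded that of 2 months by 0.24 at 9, 0.31 at 15 and 0.23 at 24 months (exact permutation test, adjusted p = 0.0254 for each). These 3 differences kept their direction and their call in all 28 alternatives run for each. Where the library left out was of an age outside the comparison, only the adjustment could change, so those repeats add little. The within-age SD of the ratio was log2 0.06, below the 0.14 of Tac1 and the 0.11 of Penk, so the ratio varied less between libraries than either gene.

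Pdyn also rose against Tac1, its partner in the direct pathway. Their ratio was 0.854, 0.919, 0.843, 0.861 and 0.846 at 2 months and 1.10, 1.07, 1.002, 1.03 and 1.05 at 24 months, with no overlap (log2 difference 0.28, exact permutation test, adjusted p = 0.0254). At 9 months it was 0.893 to 0.994, which overlapped with 2 months (log2 difference 0.14, exact permutation test, adjusted p = 0.0363). At 15 months it was 0.871 to 0.933 and did not pass (log2 difference 0.05, exact permutation test, adjusted p = 0.254). The call at 9 months was lost in 8 of 25 leave-one-out repeats (adjusted p up to 0.0726), where 4 against 5 libraries allow only larger p values. That at 24 months was kept in all 28 alternatives, with the same limit for repeats that left out a library of another age.

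The ratios of the receptors did not pass the test up to 24 months. Drd1 to Drd2 was 1.79 ± 0.102 at 2 months, 1.65 ± 0.229 at 9, 1.84 ± 0.0662 at 15 and 1.77 ± 0.0737 at 24 months (SD, n = 5). Adora2a to Drd2, both of the indirect pathway, was 1.43 ± 0.106 at 2 and 1.39 ± 0.0718 at 24 months (SD, n = 5). The ratio of Drd1 to Drd2 varied more within an age (SD of log2 0.12) than Drd1 (0.09) or Drd2 (0.11) alone.

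**Figure D4:**
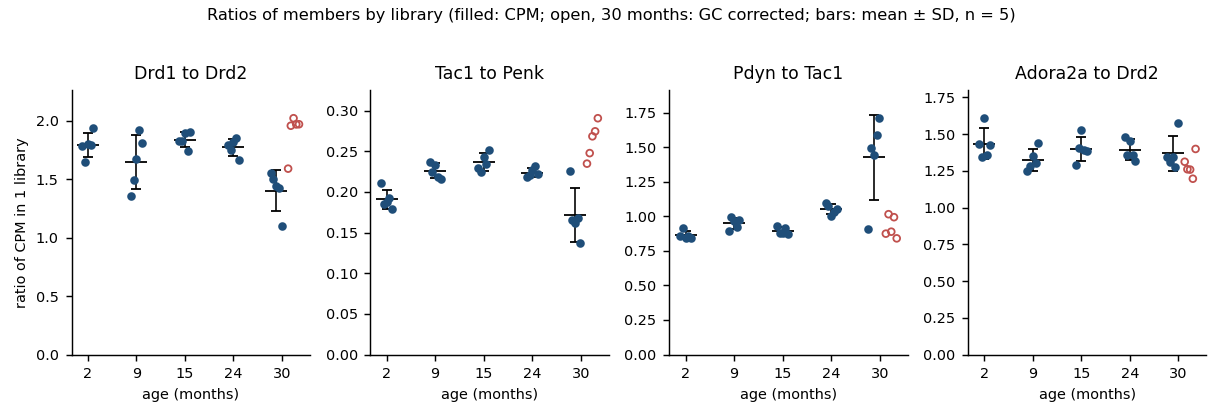
Ratio of the CPM of the members named above each panel, in every library (vertical axis, from 0) against age in months; filled points are libraries, bars the mean ± SD of 5, and open points the 30 month libraries after GC correction. For Tac1 to Penk all libraries of 9 to 24 months lie above those of 2 months, and the direction at 30 months depends on the correction.

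At 30 months most of the members' differences from 2 months depended on the GC correction. Before correction 4 members were higher than at 2 months (Drd2, Ppp1r1b, Adora2a and Pdyn) and 2 lower (Tac1 and Rgs9), where 58.0% of all genes were called. After correction 2 were higher (Tac1 and Pdyn) and 1 lower (Penk), against 45.4% of all genes. Ppp1r1b, with the highest GC content of the members, stood at 197, 259.6, 295, 270.1 and 378 CPM in replicates 1 to 5. Replicates 2 to 5 exceeded every younger library, and replicate 1 did not. Its log2 fold change was 0.39 before (edgeR adjusted p = 0.00168) and 0.06 after correction (adjusted p = 0.441). Tac1, with the lowest GC content, stood at 40.5, 36.5, 38.1, 34.2 and 38.2 CPM before and at 41.6, 51.0, 57.8, 51.0 and 68.6 CPM after correction, and its log2 fold change turned from -0.24 (edgeR adjusted p = 0.0144) to 0.27 (adjusted p = 0.0359).

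The contrast in base composition between these 2 genes is visible in their first 90 coding bases, shown 5′ to 3′ with G and C in capitals. Those of Ppp1r1b, joined across an intron between 98349094 and 98350577 of chromosome 11 on the plus strand of GRCm38, are 65.6% G and C, and those of Tac1, chr6:7555614-7555703 on the plus strand, 43.3%.
Ppp1r1b coding start: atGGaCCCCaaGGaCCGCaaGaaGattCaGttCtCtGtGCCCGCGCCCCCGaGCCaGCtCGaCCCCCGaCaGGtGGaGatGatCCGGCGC
Tac1 coding start: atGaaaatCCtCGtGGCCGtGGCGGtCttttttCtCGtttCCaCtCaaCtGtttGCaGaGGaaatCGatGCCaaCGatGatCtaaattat
The correction rests on the GC content of the longest transcript, which for Tac1 is a non-coding one at 42.8%, against 46.3% for its longest coding transcript. With the coding transcript the corrected log2 fold change of Tac1 was 0.02 (edgeR adjusted p = 0.851), that of Drd1 0.21 (adjusted p = 0.0218) and that of Penk -0.16 (adjusted p = 0.0697). This version was added after the values were seen. The call of Tac1 and of Penk was thus lost, and that of Drd1 gained, by the choice of transcripts over all genes. For Drd1 and Penk the longest transcript is itself coding. Their own GC content was therefore the same in both versions, and only the fitted curve differed.

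**Figure D5:**
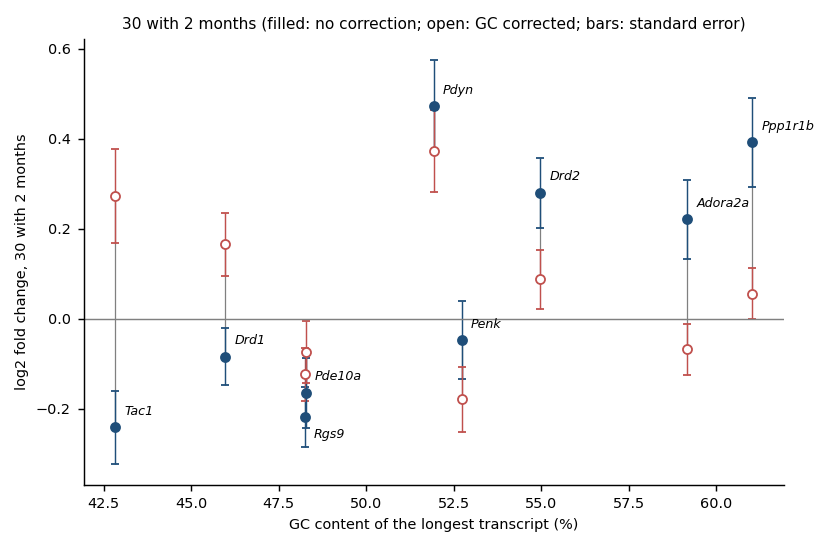
Log2 fold change from 2 to 30 months (vertical axis) of each member against the GC content of its longest transcript in percent (horizontal axis); filled points have no correction, open points are GC corrected, bars are standard errors and grey lines join the 2 values of a gene. Before correction the 3 members of 55.0% GC and more lie at 0.22 to 0.39 and the 4 of 48.3% and less at -0.24 to -0.08, while Pdyn (51.9%) is the highest of all at 0.47 and Penk (52.7%) is at -0.05.

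Pdyn was the member higher at 30 than at 2 months both before (log2 fold change 0.47, edgeR adjusted p = 0.000482) and after correction (0.37, adjusted p = 0.00179). Its corrected libraries read 36.4, 51.8, 51.4, 50.7 and 57.7 CPM. Replicate 1, the library without the GC distortion, was at the level of 2 months, and the other 4 were at or above the level of 24 months. Without replicates 2 to 5, which leaves 1 library that is assumed to vary like the other ages, Pdyn differed from 2 months by -0.06 (edgeR adjusted p = 0.832). None of the 9 members was called by edgeR in that fit, which called 1293 of the 17799 genes. The ratio of Pdyn to Tac1 was higher at 30 than at 2 months before correction (log2 difference 0.69, exact permutation test, adjusted p = 0.0363). After correction by the longest transcript, non-coding for Tac1, the difference was 0.09 (exact permutation test, adjusted p = 0.267). By the coding transcript, Pdyn read 36.5, 52.2, 52.2, 51.4 and 59.1 CPM at 30 months. Tac1 then read 41.0, 43.0, 47.1, 41.7 and 53.4 CPM. By this version, added after the values were seen, Pdyn was thus above Tac1 in replicates 2 to 5. It was below Tac1 in all 5 libraries of 2 months. Corrected by the longest transcript, the ratio in replicates 1 to 5 of 30 months was 0.875, 1.016, 0.889, 0.994 and 0.841. Pdyn then exceeded Tac1 in replicate 2 alone. In replicate 1 of 30 months the uncorrected ratio was 0.906, within the 0.843 to 0.919 of 2 months. In that same library the ratio of Tac1 to Penk was 0.226, above all 5 libraries of 2 months and within the range of 9 to 24 months. Over all 5 libraries the log2 difference of this ratio from 2 months was -0.17 (exact permutation test, adjusted p = 0.33) before and 0.46 (adjusted p = 0.0254) after GC correction. The ratio of Drd1 to Drd2 was lower at 30 months before correction (log2 difference -0.36, exact permutation test, adjusted p = 0.0254), and after correction the difference was 0.07 (adjusted p = 0.469).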

How the data were processed

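The deposited table holds counts per Ensembl gene. Per the submitters' processing notes, CASAVA 1.7, STAR 2.4.1d, featureCounts 1.4.6-p4 and the build GRCm38 were used by the authors; annotation release, strand setting and other options are not given in the sources used here. The deposited RPKM values were not used, since most of them were computed with the library size of a different sample. Replicate numbers follow accession order. Symbols, coordinates, exon lengths and GC content come from GENCODE M21, which matched 47310 of 47729 genes. Counts were filtered with filterByExpr, scaled with TMM over 25 libraries and tested in edgeR 4.0.16 (R 4.3.3), on the 20 libraries of 2 to 24 months, or on all 25 for 30 with 2 months, at an adjusted p of 0.05. The GC correction subtracts, per library, a lowess curve (span 0.3) of log2 ratios against GC content over 15224 protein-coding genes. DESeq2 1.42.0, limma 3.58.1 and further settings served as alternatives. Of the tests, only edgeR's for 24 with 2 months was checked on simulated data, drawn without GC distortion or variation shared between genes. All 9 members are described, and of other lists at most the 3 genes with the smallest p from 2 to 24 months are named. Of the genes most like the members, the first 15 (mean of at least 2 CPM) are named; 1 gene and 1 sequence that these rules would name are not reported here. The members, lists and tests were chosen with earlier results of these data known.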

Additional observations from a re-analysis of the deposited data

Results flagged for a closer look

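Among 65 groups of 5 libraries examined, 9 members and 4 ratios at 5 ages each, 5 held a library whose gap to its nearest neighbour was above 0.71 of the range of the group. Chance alone gives about 1 in 20 groups. Replicate 1 of 2 months stood apart for Tac1, at 57.1 CPM against 40.1 to 42.3 in the other 4 libraries, and for Pdyn, at 48.8 CPM against 34.3 to 38.3. The ratio of Pdyn to Tac1 in replicate 2 of 2 months was 0.919, against 0.843 to 0.861 in the others. In replicate 5 of 30 months, the library with the widest GC gap, the ratio of Drd1 to Drd2 was 1.10 against 1.42 to 1.55 in the others, and that of Adora2a to Drd2 was 1.58 against 1.27 to 1.35.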

How the results depend on the processing

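Of 1620 log2 fold changes of single members under the alternatives, 1476 kept direction and side of the threshold, 67 lost a call, 31 gained one and 46 changed sign; causes were not tested. No paired analysis was possible because replicate numbers follow accession order and pair no animals. Members called from 2 to 9 months numbered 1, but 3 with DESeq2, 2 with limma-voom, 5 with the 11 other spiny neuron genes as covariate and 0 with all 25 libraries in 1 fit (edgeR, adjusted p). From 9 to 15 months there was 1, but 2 with DESeq2, 2 with the covariate (Tac1 and Penk, both higher, with Drd2 lost) and 0 with all 25 libraries. With all 25 libraries the count fell to 0 from 15 to 24 months, 1 from 2 to 24 months and 0 for the trend. From 2 to 30 months there were 6, but 3 after GC correction, 2 with GC of the longest coding transcript, and 0 without replicates 2 to 5 of 30 months, with or without that correction. Correlated pairs numbered 14 of 36 with all 25 libraries uncorrected. Leaving out 1 library gave 0 to 4 members from 2 to 9 months (0 without replicate 1 of 9 months, 4 without replicate 1 of 2 months), 1 to 2 from 9 to 15, 2 to 3 from 15 to 24 and 3 to 5 from 2 to 24 months, 2 to 4 for the trend, 5 to 7 from 2 to 30 months, 13 to 32 pairs and 4 to 8 ratios. Signs that changed were mostly of small differences. Scaling by total counts alone gave -0.019 for Drd1 and -0.00062 for Adora2a from 2 to 9 months, 0.016 for Tac1 from 9 to 15 and 0.015 for Penk from 2 to 30 months, and RLE factors 0.0019 for Tac1 from 9 to 15 months. With the covariate, 9 to 15 months gave 0.043 for Drd1, 0.031 for Ppp1r1b, 0.12 for Penk, 0.24 for Tac1, 0.10 for Pdyn and 0.00044 for Pde10a, and 15 to 24 months -0.014 for Tac1. With it, 2 to 24 months gave 0.022 for Drd2, 0.12 for Ppp1r1b, 0.087 for Penk, 0.030 for Rgs9 and 0.033 for Pde10a, and the log2 trend per month was 0.0067 for Ppp1r1b, 0.0052 for Penk and 2.3e-05 for Rgs9. GC correction turned 2 to 30 months to 0.17 for Drd1, -0.068 for Adora2a and 0.27 for Tac1, and by the coding transcript to 0.21, -0.060 and 0.024. It turned log2 ratio differences of Drd1 to Drd2 to -0.038 at 15, 0.031 at 24 and 0.072 at 30 months and of Tac1 to Penk to 0.46 at 30 months (coding transcript: -0.038, 0.033, 0.10 and 0.20). Without replicates 2 to 5 of 30 months Ppp1r1b was at -0.11, Adora2a at -0.056 and Pdyn at -0.063, and by the coding transcript at -0.17, -0.095 and -0.070. With all 25 libraries uncorrected, r was -0.030 for Drd2 and Rgs9, -0.021 for Drd2 and Pde10a, -0.19 for Ppp1r1b and Rgs9, -0.26 for Ppp1r1b and Pde10a, -0.12 for Adora2a and Rgs9, -0.26 for Adora2a and Pde10a, -0.088 for Penk and Pde10a, -0.16 for Pdyn and Rgs9 and -0.11 for Pdyn and Pde10a. Leaving out 1 library moved Drd1 from 2 to 9 months between -0.027 and 0.052, Adora2a between -0.018 and 0.070, Tac1 between -0.030 and 0.039 from 9 to 15 and -0.017 and 0.081 from 15 to 24 months, Ppp1r1b between -0.064 and 0.011 from 2 to 24 and Penk between -0.14 and 0.022 from 2 to 30 months. It moved the log2 ratio of Adora2a to Drd2 between -0.066 and 0.0081 at 15 and -0.063 and 0.0025 at 24 months, and of Drd1 to Drd2 between -0.043 and 0.015 at 24 months. Drd2 lost its trend in many of these repeats and kept it in 11 of 29 alternatives, and the rise of Ppp1r1b from 15 to 24 months was kept in 19 of 29. Over all genes, all 25 libraries in 1 fit gave 423 calls in place of 2589 from 2 to 9 months, 3 in place of 1910 from 9 to 15, 201 in place of 4208 from 15 to 24, 931 in place of 3972 from 2 to 24 and 990 in place of 2950 for the trend. GC correction gave 1006 calls from 9 to 15 (coding transcript 1001, covariate 1044) and 2082 from 15 to 24 months (coding transcript 1976), and 1289 remained of 10324 from 2 to 30 months by the coding transcript without replicates 2 to 5. The share of calls that were higher moved by total counts alone from 53.3% to 35.3% (2 to 9 months), 36.2% to 57.9% (9 to 15 months) and 49.3% to 60.7% (trend; 59.4% without the filter), and by RLE factors from 52.1% to 40.3% (15 to 24 months). The coding-transcript GC correction and the GC corrected pairs were chosen after seeing the data.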
